A study of Mus musculus with 20 samples.

Results

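The Hox genes are the 39 homeobox transcription factor genes of the Hoxa, Hoxb, Hoxc and Hoxd clusters, and they were examined here in 20 mouse RNA-seq libraries. Members were taken by symbol, as Hox with a cluster letter and a paralog number from 1 to 13 and nothing after it. This gave 39 of the 22102 entries of a differentiation table and 40 of the 42458 entries of a second table, in which Hoxa3 has 2 entries. The Hoxa cluster holds 11 of them, Hoxb 10, Hoxc 9 and Hoxd 9. Anterior members (paralog groups 1 to 4) number 12, central members (groups 5 to 8) 11 and posterior members (groups 9 to 13) 16. In mm9, the build of the files, the clusters lie on chromosomes 6 (Hoxa), 11 (Hoxb), 15 (Hoxc) and 2 (Hoxd), with Hoxa2 at chr6:52112509-52114830, Hoxb2 at chr11:96212945-96215328, Hoxb9 at chr11:96132643-96137907, Hoxc6 at chr15:102839992-102842312 and Hoxd13 at chr2:74506366-74509655.

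Hox genes lie in the order in which they are used along the body. Genes at the 3′ end of a cluster are switched on first in the gastrulating embryo and act in the hindbrain and neck, and genes at the 5′ end follow later and act in the trunk, limb buds and tail. In pluripotent cells the clusters are held silent by Polycomb complexes, and retinoic acid, Wnt and Fgf signals open them from the 3′ end. Fibroblasts keep the Hox code of the body part they come from.

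The series asked how Braveheart, a long noncoding RNA of the mouse, acts when embryonic stem cells (ESCs) become heart muscle, and how RNAs differ between pluripotent and fibroblast cells. In the first experiment E14 ESCs carried a scrambled short hairpin RNA or 1 of 2 hairpins (A and B) against Braveheart, delivered by lentivirus in the pLKO.1 vector and selected with puromycin. Each of the 3 cultures gave 1 library at day 0, 3, 6 and 9 of differentiation, so a hairpin and its culture cannot be told apart. Spontaneous differentiation in embryoid bodies and directed differentiation to cardiomyocytes are each described for these cells, and which of them a library came from is not stated. Below, values of the 3 cultures are always given in the order scrambled, A, B. The second experiment held wild type ESCs of the lines E14 (strain 129/Ola) and v6.5 (129/svJae x C57BL/6) with 2 libraries each, and 1 library each of embryonic fibroblasts (MEF) and of 3 lines made from them: the partially reprogrammed lines 11.3 (MCV6) and 11.5 (MCV8) and the induced pluripotent line miPS. The MEF and the 3 lines carry Oct4-GFP on a 129/svJae x C57BL/6 background, and the 3 lines also carry retroviral Oct4, Sox2, c-myc and Klf4. The ESCs and miPS cells grew on irradiated MEFs, which were removed by a short pre-plating, and the 2 partially reprogrammed lines grew without feeders. The labels do not say whether the 2 libraries of an ESC line are separate cultures. The tests also treated lines 11.3 and 11.5 as 2 libraries of 1 group. P-values of this experiment measure the spread within these pairs. Within an ESC line it may be technical, and within the pair of reprogrammed lines it includes the difference between 2 separate lines.

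The fibroblast label held, since 10 fibroblast genes summed to 57468 CPM (counts scaled to library size) in MEF and to at most 1018 CPM in any other library of the second experiment, and 8 pluripotency genes summed to 71.5 CPM in MEF. The second experiment had 7536503 to 23662593 assigned reads per library. Depth in the differentiation table ranged from 0.689 to 1.124 times that of the scrambled day 0 library, judged from the steps between low values. At days 6 and 9 the hairpin B culture did not look like the other cultures. Pou5f1, the pluripotency factor Oct4, read 621 and 602 FPKM (fragments per kilobase of transcript, scaled to library size) there, against 276 and 98.8 in the scrambled and 337 and 102 in the hairpin A culture. Counts of calls between days are therefore given with and without those 2 libraries. The level of Braveheart was not analysed here.

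Promoter windows of 300 bases, from 250 before to 50 after the transcription start, were held by a RefSeq table (build GRCm38.p6) for 22 of the 39 members, 24 windows in all. The 4 shown here belong to members that the results turn on: Hoxa2, which read its highest values at day 9 in the scrambled and hairpin A cultures, and Hoxd9, its neighbour Hoxd10 and the end gene Hoxd13, whose levels differed from each other in the partially reprogrammed lines. Capitals mark CG dinucleotides, the substrate of CpG methylation and a feature of promoters bound by Polycomb. Each runs 5′ to 3′ along the gene. Hoxa2 is at chr6:52164782-52165081 on the minus strand, and Hoxd9 at chr2:74697513-74697812, Hoxd10 at chr2:74691641-74691940 and Hoxd13 at chr2:74667975-74668274 lie on the plus strand.
Hoxa2: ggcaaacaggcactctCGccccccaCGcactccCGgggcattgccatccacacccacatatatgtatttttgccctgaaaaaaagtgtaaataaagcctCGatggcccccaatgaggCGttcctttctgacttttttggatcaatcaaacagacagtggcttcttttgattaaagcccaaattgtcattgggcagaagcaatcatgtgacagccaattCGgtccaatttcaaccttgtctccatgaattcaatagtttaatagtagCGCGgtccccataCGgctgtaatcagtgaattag
Hoxd9: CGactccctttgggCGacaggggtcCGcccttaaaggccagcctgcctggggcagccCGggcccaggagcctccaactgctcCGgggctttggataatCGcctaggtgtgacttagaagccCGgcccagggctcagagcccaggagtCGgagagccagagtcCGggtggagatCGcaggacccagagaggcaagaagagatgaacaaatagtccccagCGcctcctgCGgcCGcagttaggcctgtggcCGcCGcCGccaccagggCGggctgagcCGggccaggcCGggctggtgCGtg
Hoxd10: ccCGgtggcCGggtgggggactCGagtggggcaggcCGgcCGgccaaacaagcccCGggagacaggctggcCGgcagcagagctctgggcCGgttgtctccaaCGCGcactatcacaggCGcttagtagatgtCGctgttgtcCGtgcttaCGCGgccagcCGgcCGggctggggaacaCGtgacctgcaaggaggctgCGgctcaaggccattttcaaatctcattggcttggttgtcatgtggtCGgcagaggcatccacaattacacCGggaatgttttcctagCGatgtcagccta
Hoxd13: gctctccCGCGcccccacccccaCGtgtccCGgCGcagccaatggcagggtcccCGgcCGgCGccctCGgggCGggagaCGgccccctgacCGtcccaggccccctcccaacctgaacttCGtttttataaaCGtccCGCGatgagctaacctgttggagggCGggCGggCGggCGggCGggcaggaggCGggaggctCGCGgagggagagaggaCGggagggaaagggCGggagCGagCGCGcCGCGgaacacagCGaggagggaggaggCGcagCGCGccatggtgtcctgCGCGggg
The Hoxa2 window held 9 CG dinucleotides, Hoxd9 20, Hoxd10 22 and Hoxd13 37. Over the 24 Hox windows the median was 14.5 with a range of 4 to 45, beside a median of 7 over all 32851 windows in the table. Of the 24 windows 20 lay above that median. A composite Pbx-Hox motif, TGATNNAT on either strand, was found in 4 of them (Hoxa2, Hoxb1, Hoxb8 and the second window of Hoxd11), or 16.7%, and in 8.85% of all windows. Pbx proteins are the DNA-binding partners of Hox proteins, and a letter match is not a bound site.

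Hox RNA was low throughout differentiation. In the 12 libraries 28 of the 39 members never reached 1 FPKM, 4 did so in 1 library only, and 7 did so in at least 2 libraries and could be tested, among them Hoxa2, Hoxb2, Hoxb3, Hoxb9, Hoxc13 and Hoxd13. The highest value of any member was 3.60 FPKM, for Hoxb2 in the hairpin A culture at day 9. Between 0 and 5 members were at 1 FPKM or more in a library. For 33 members the steps between FPKM values could be read as whole reads. Hoxc5 had 0 to 3 reads in every library. The listed locus of Hoxa3 spans those of Hoxa4, Hoxa5 and Hoxa6, so values of these members are uncertain. In bulk libraries fewer cells of a type and less RNA per cell cannot be told apart.

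**Figure D1:**
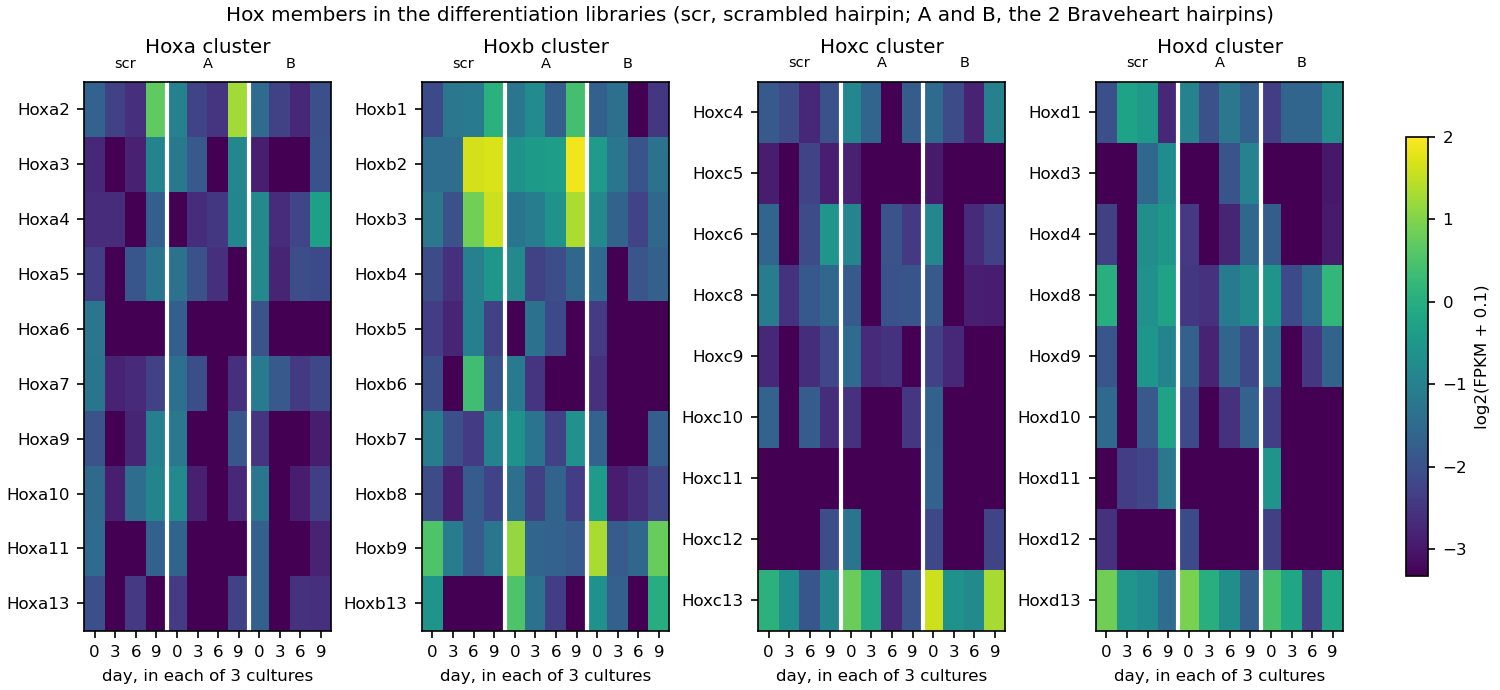
Each cell is log2(FPKM + 0.1) of 1 Hox member in 1 of the 12 differentiation libraries, with members ordered by paralog number within the Hoxa, Hoxb, Hoxc and Hoxd clusters and days 0, 3, 6 and 9 side by side for each culture. At day 9 Hoxb2 and Hoxb3 read 2.44 to 3.60 FPKM in the scrambled and hairpin A cultures, and at day 0 Hoxb9 and Hoxc13 read 2.41 and 2.94 FPKM in hairpin B.

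The 3 tested posterior genes, Hoxb9, Hoxc13 and Hoxd13, were highest at day 0 in every culture. Hoxb9, which helps pattern the thoracic skeleton, stood at 1.35, 2.13 and 2.41 FPKM before differentiation (day 0). It then read 0.376, 0.234 and 0.187 FPKM at day 3, 0.190, 0.219 and 0.246 at day 6, and 0.323, 0.187 and 1.60 by day 9. All day 0 values lay above all later ones except that of hairpin B at day 9, which lay between the day 0 values. Hoxb9 fell at day 3 (log2 difference -1.21 ± 0.28 (SE), limma adjusted p = 0.0357) and at day 6 (-1.26 ± 0.28, limma adjusted p = 0.0276). At day 9 it was at -0.87 ± 0.28, short of the threshold of 0.05 (limma adjusted p = 0.0556), and with the culture as a block it was called (limma adjusted p = 0.0386). These differences are on the scale of log2(FPKM + 1), which understates the change of genes this low. Hoxb9, Hoxc13 and Hoxd13 reached 1 FPKM only at day 0 and, for Hoxb9 and Hoxc13, in hairpin B at day 9. They thus passed the filter mainly through their high day 0 values, so their calls are a description.

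Hoxd13, the end gene of the Hoxd cluster and a regulator of digits and genitalia, read 1.69, 1.80 and 1.27 FPKM at day 0, 0.583, 0.916 and 0.787 at day 3, 0.499, 0.528 and 0.101 at day 6, and 0.275, 0.205 and 0.783 by day 9. Every day 0 library was above every later one. The fall reached -0.92 ± 0.21 at day 6 (limma adjusted p = 0.0337) and -0.88 ± 0.21 at day 9 (limma adjusted p = 0.0322), and at day 3 it did not pass (-0.55 ± 0.21, limma adjusted p = 0.156).

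Hoxc13, which acts in hair and nail, read 0.972, 1.62 and 2.94 FPKM at day 0, 0.526, 0.823 and 0.559 at day 3, 0.170, 0.0491 and 0.483 at day 6, and 0.442, 0.157 and 2.37 by day 9. The 3 day 0 libraries lay above those of days 3 and 6 and overlapped with day 9 through hairpin B. Its day 6 difference of -1.16 ± 0.37 was not called (limma adjusted p = 0.0750) and became a call with the culture as a block (limma adjusted p = 0.0384). Hoxb13, a gene of the tail end of the body axis, was not tested, and read 0.579, 1.36 and 0.563 FPKM at day 0, 0, 0.301 and 0.211 at day 3, 0, 0.0986 and 0 at day 6, and 0, 0 and 0.901 by day 9. Its 3 day 0 values rested on 8, 15 and 8 reads.

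In the scrambled and hairpin A cultures, the anterior genes Hoxb2, Hoxb3 and Hoxa2 had their highest values at day 9. Hoxb2, which shapes the hindbrain and facial nerve, read 0.281, 0.563 and 0.657 FPKM at day 0, 0.274, 0.644 and 0.328 at day 3, 3.06, 0.691 and 0.162 at day 6, and 3.14, 3.60 and 0.300 by day 9. Hoxb3, its neighbour, read 0.331, 0.319 and 0.471 at day 0, 0.149, 0.371 and 0.223 at day 3, 1.72, 0.556 and 0.114 at day 6, and 2.92, 2.44 and 0.249 by day 9. Both were high in the scrambled culture from day 6, in hairpin A only at day 9 and in hairpin B at no day.

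Hoxa2, the selector gene of the second branchial arch, read 0.217, 0.407 and 0.264 FPKM at day 0, 0.106, 0.113 and 0.105 at day 3, 0.0641, 0.0741 and 0.0520 at day 6, and 1.51, 2.29 and 0.145 by day 9. Its day 9 level came without a day 6 step in any culture. Hoxb1, which specifies a single hindbrain segment, read 0.956, 1.24 and 0.0816 at day 9 against 0.129 to 0.326 at day 0. Hoxd3, a gene of the neck vertebrae whose locus contains that of Hoxd4, was listed at 0 in all 3 libraries of day 0 and read 0.498, 0.410 and 0.0265 at day 9.

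Over all 12 libraries none of these anterior differences passed the test. The day 9 differences were 0.97 ± 0.50 for Hoxb2 (limma adjusted p = 0.172), 0.90 ± 0.40 for Hoxb3 (limma adjusted p = 0.118) and 0.71 ± 0.33 for Hoxa2 (limma adjusted p = 0.130). Without the 2 late hairpin B libraries, a choice made after seeing the data, all 3 rose at day 9: Hoxb2 by 1.53 ± 0.33 (limma adjusted p = 0.00479), Hoxb3 by 1.40 ± 0.22 (limma adjusted p = 0.000887) and Hoxa2 by 1.17 ± 0.13 (limma adjusted p = 0.000168). In that fit Hoxb9, Hoxc13 and Hoxd13 fell by 1.21, 1.06 and 1.05 on the log2 scale. Hoxa2 reached 1 FPKM in 2 libraries only and Hoxb2 and Hoxb3 in 3, all from day 6 or 9 of the scrambled or hairpin A culture. These 3 genes thus passed the filter through the values called high, so their calls are a description.

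The summed levels of other cell type markers differed between the cultures at day 9 and were lowest in hairpin B. The 6 cardiomyocyte genes summed to 418.7, 70.5 and 11.4 FPKM at day 9 (3.58 to 4.30 at day 0), the 5 endoderm genes to 65.9, 54.0 and 2.85 (0.56 to 1.10), the 6 mesoderm genes to 42.0, 49.3 and 13.7 (3.46 to 4.73), and the 6 blood and endothelial genes to 226.3, 106.7 and 40.3 (16.8 to 29.4). The 5 neural genes summed to 71.7, 79.2 and 42.5 (57.1 to 61.7). Limma called 4 cardiomyocyte, 3 endoderm and 1 mesoderm gene (Hand1) higher at day 9, and 0 neural or blood and endothelial genes (10.3% of all genes were higher). Single markers did not all follow the sums: Hand1 read 6.23, 4.40 and 11.3 FPKM at day 9, Pecam1 11.2, 9.06 and 38.5, Gata1 0.670, 0.654 and 1.25, and Tubb3 24.7, 22.6 and 27.5, each highest in hairpin B. Their part in the Hox values was not tested.

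**Figure D2:**
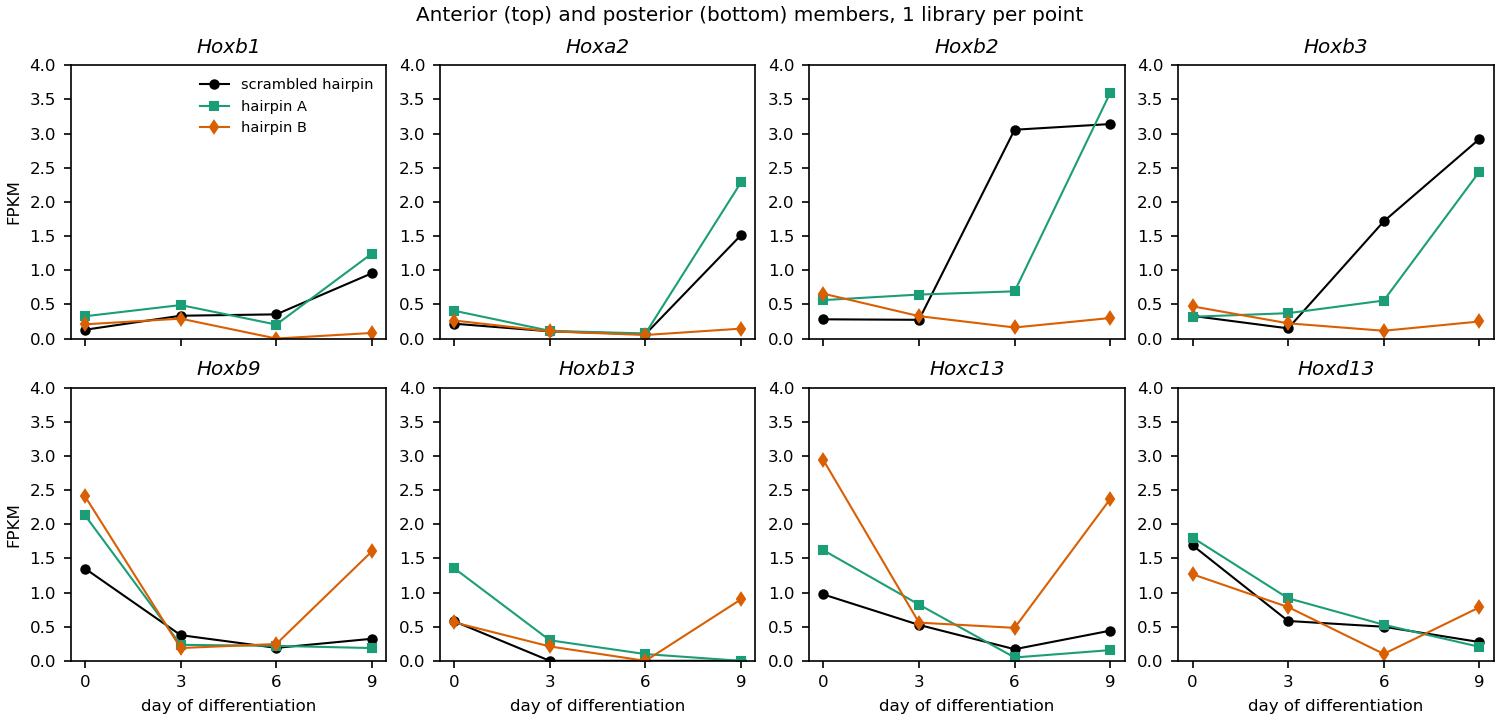
FPKM (linear axis from 0 to 4) of 4 anterior members (top) and 4 posterior members (bottom) against day of differentiation, with 1 line per culture and 1 library per point. Hoxb2 reached 3.14 and 3.60 FPKM at day 9 in the scrambled and hairpin A cultures and 0.300 in hairpin B. Hoxb9 read 1.35 to 2.41 FPKM at day 0 and at most 0.376 at day 3.

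Most of the 7 tested members passed the filter through the days on which they were high, so these counts are a description. Among the 7 tested members 1 fell and 0 rose at day 3, where 2.78% of all 14108 tested genes fell and 3.26% rose. At day 6 it was 2 and 0 (3.71% of all genes fell and 4.97% rose). With the culture as a block 4 fell, where 854 of the 14108 genes fell, beside 523 without the block. At day 9 it was 1 and 0 (6.22% and 10.3%), and 2 fell with the block, where 1561 of all genes fell, beside 878 without it. Without the 2 late hairpin B libraries 3 fell and 0 rose at day 3 (among them Hoxb9 and Hoxd13, with 12.6% and 14.4% of all genes), 4 fell and 0 rose at day 6 (among them Hoxb9, Hoxc13 and Hoxd13, with 19.0% and 27.2%), and 3 rose and 3 fell at day 9 (35.3% and 24.5%), so the share of all genes called went up along with the members. Leaving out a single library ended the day 3 call of Hoxb9 for 9 of the 12 libraries.

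Counted over all 39 members with no filter, 22 had all 3 day 0 libraries above all 3 of day 3, against 18.0% of 19580 genes, and 0 showed the opposite (17.5%). Of those 22, 12 were posterior, 6 central and 4 anterior. Some of the 22 rested on very few day 0 reads and others, such as Hoxb13, on more. Hoxc5 had 1, 1 and 1 reads at day 0, Hoxa6 2, 1 and 1, and Hoxd12 2, 3 and 3, each with 0 at day 3. For day 6 the count of members was 16 (15.0% of genes) with 0 the other way (18.7%). For day 9 it was 5 (9.93%), and Hoxd3 was the 1 member above day 0 in all libraries of day 9 (16.4%), with 2 reads in hairpin B. The scrambled and hairpin A libraries of day 9 lay above hairpin B and above all of day 0 for 7 members, a share below that of all genes (33.5%), and all 7 were anterior: Hoxa2, Hoxa3, Hoxb1, Hoxb2, Hoxb3, Hoxd3 and Hoxd4. In single cultures 33, 31 and 36 of 39 members were lower at day 3 than at day 0 (48.4%, 45.9% and 48.3% of genes). By day 9, 22, 12 and 7 members were higher than at day 0 (54.7%, 50.8% and 50.6% of genes). Anterior members made up 9, 8 and 5 of these, out of 12, and posterior members 7, 3 and 1, out of 16.

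Anterior members summed to 4.14, 5.86 and 5.26 FPKM at day 0 and to 13.2, 14.1 and 4.89 FPKM at day 9. Posterior members summed to 6.18, 9.17 and 9.72 FPKM at day 0 and to 3.88, 1.3 and 6.23 FPKM at day 9. Central members summed to between 0.342 and 3.27 FPKM. Among them 2 values passed 1 FPKM: Hoxb6 at 1.19 in the scrambled day 6 library, on 14 reads, and Hoxd8 at 1.05 in the hairpin B day 9 library.

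**Figure D3:**
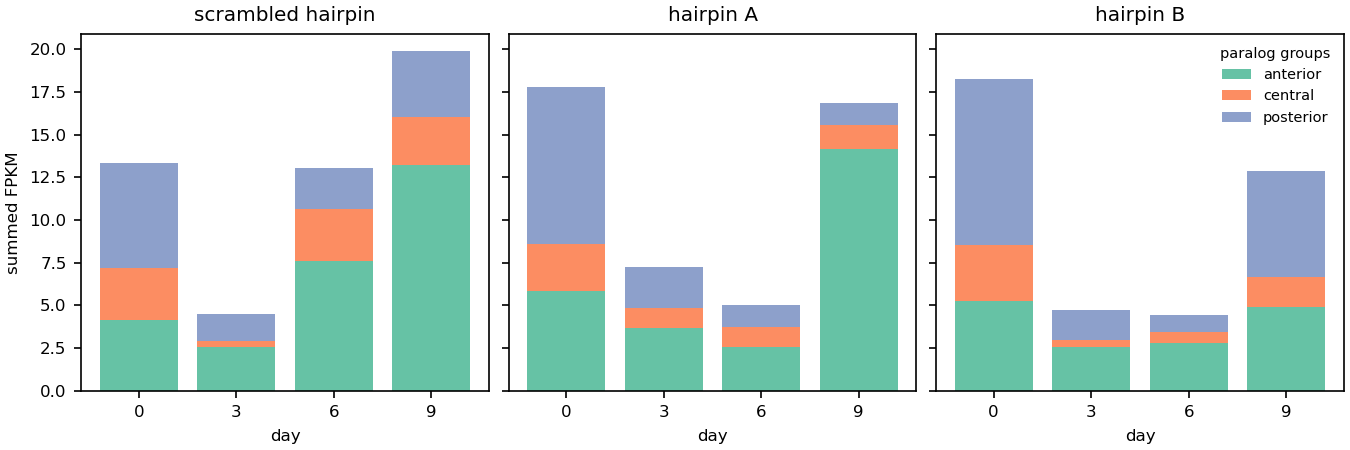
Bars give the FPKM summed over the 12 anterior, 11 central and 16 posterior Hox members at days 0, 3, 6 and 9 in each culture, 1 library per bar. The anterior part was 4.14 FPKM at day 0 and 13.2 FPKM at day 9 in the scrambled culture, 5.86 and 14.1 FPKM with hairpin A, and 5.26 and 4.89 FPKM with hairpin B.

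The summed level of fibroblast genes was also lower at day 3. The 10 listed, all detected at day 0, summed to 79.4 to 93.7 FPKM at day 0 and to 19.7 to 25.0 at day 3, with 1 or 2 of them at 0 there, then to 30.1 to 51.4 at day 6 and to 191.6, 104.2 and 39.8 at day 9. Col1a1 read 10.3, 14.1 and 18.0 FPKM at day 0 and 0.679, 1.24 and 0.399 at day 3, and Col1a1, Col1a2 and Fbln2 were the 3 called lower at day 3 by limma (2.78% of all genes). Not all of the 10 were lower: Twist1 read 4.50, 5.13 and 5.36 FPKM at day 0 and 5.37, 6.79 and 7.59 at day 3. Thy1 was lower in each culture but by less than Col1a1, with 17.2, 18.2 and 14.4 at day 0 and 17.0, 14.4 and 10.2 at day 3. The second experiment gives the Hox levels of such cells: Hoxb9 stood at 22.8 CPM in MEF and 0.624 CPM over the 4 ESC libraries, whereas Hoxc13 stood at 0.342 CPM in MEF (95% exact Poisson interval 0.0706 to 1.00, counting error only) and 0.789 CPM in ESCs. The part of feeder RNA in the day 0 values was not tested.

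Depletion of Braveheart gave no Hox call. With the 2 hairpin libraries against the scrambled library of the same day, 0 of the 7 tested members passed at any of the 4 days by limma, and 0 had an unadjusted p under 0.05 (0.468%, 0.262%, 1.05% and 1.41% of all genes at days 0, 3, 6 and 9). Over all genes 0.0213%, 0.0284%, 0.0425% and 0.0354% were called at days 0, 3, 6 and 9. The widest gaps were at day 6, where Hoxb2 differed by -1.53 ± 0.70 and Hoxb3 by -1.04 ± 0.59 (limma adjusted p = 1.00 for both), with scrambled above hairpin A and hairpin A above hairpin B in each. At day 9 the hairpins split: Hoxb2 in hairpin A (3.60 FPKM) was above scrambled (3.14) and in hairpin B (0.300) far below. Of the 39 members 14 were lower in hairpin B than in both other cultures at day 9, 9 of them anterior, and 10 were higher, among them Hoxb9, Hoxb13, Hoxc13 and Hoxd13. The same holds for 43.8% and 38.1% of all genes.

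Genes that act with or upstream of Hox genes were read from lists. Of 9 TALE homeobox cofactors, which bind DNA together with Hox proteins, 5 rose at day 9 (among them Meis1, Meis2, Pbx2 and Pknox2) and Pknox1 fell (10.3% of all genes rose and 6.22% fell), with a median log2 difference of 1.43 beside 0.10 for all genes. Meis2 read 0.597, 0.530 and 2.32 FPKM at day 0 and 20.1, 16.5 and 2.93 at day 9, so hairpin B again stayed near its start. Of 11 tested Hox regulators, Cyp26a1 and Nr6a1 rose at day 6 (4.97% of all genes) and Cyp26a1 and Gdf11 at day 9 (10.3%), with median log2 differences of 1.02 and 0.66 beside 0.07 and 0.10 for all genes. Cyp26a1, the enzyme that breaks down retinoic acid, read 0.407, 0.381 and 0.297 FPKM at day 0 and 94.9, 105 and 15.9 at day 6. Of 17 Polycomb genes and their opponents, Ezh1 fell at day 6 (3.71% of all genes), and Ring1 rose and Phc1 fell at day 9 (10.3% and 6.22%), with medians of -0.11 and -0.06.

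Fibroblasts carried Hox RNA from all 4 clusters. Per length, Hoxd13 stood highest in MEF at 34.3 TPM (read share corrected for transcript length), followed by Hoxb9 at 33.3, Hoxc6 at 20.9, Hoxb6 at 20.1 and Hoxb8 at 19.6. With 1 MEF library the order of close neighbours such as Hoxd13 and Hoxb9 has no replicate check. In MEF 33 of the 40 entries were at 1 TPM or more, against 2 to 11 in the 4 ESC libraries. The members with few MEF reads were Hoxb1 with 0, Hoxc12 with 1, Hoxd1 with 2, Hoxc13 with 3, Hoxc11 with 4 and Hoxb13 with 5 expected counts (reads assigned by a model, which need not be whole). Summed over members, Hox RNA made up 259 CPM in MEF, 119.6 in line 11.3, 88.7 in line 11.5, 15.8 in miPS and 5.57 to 17.7 in ESCs.

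The 4 ESC libraries, E14 replicates 1 and 2 and v6.5 replicates 1 and 2, gave Hoxd13 1.94, 1.18, 1.28 and 1.45 CPM, and MEF gave 30.1. Hoxb9 read 0.529, 0.634, 0.896 and 0.565 CPM in ESCs and 22.8 in MEF. Hoxc9, which acts in the thorax and in motor neurons there, read 0, 0, 0.128 and 0.0807 CPM in ESCs and 12.3 in MEF. In each of the 3 the MEF value lay far above all ESC values. Hoxc5 had 0 counts in all ESC libraries and 31.2 in MEF, at least 72.3-fold higher in CPM (3 counts over the ESC group as the floor). Hoxc13 read 0.941, 0.718, 1.41 and 0.323 CPM in ESCs, so MEF at 0.342 lay inside their range.

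Over all 40 entries with no filter, MEF lay above all 4 ESC libraries in 35 (20.7% of genes) and below all 4 in 0 (29.7%). The edgeR test covered the 25 entries with 1 CPM in 2 libraries. Of these, 19 reached 1 CPM in no ESC library and so passed only through other cells, which largely sets the direction of their calls. The calls were 23 higher in MEF and 0 lower, where 15.4% of all 16757 tested genes were higher and 13.3% lower, and are given as a description. Hoxc13 was among those not called (log2 difference -0.90 ± 1.20). The filter asks for a second library beside MEF. Members that reached 1 CPM in MEF alone, such as Hoxb8, Hoxb9, Hoxc5, Hoxc8 and Hoxd12, were therefore not tested. Called members included Hoxc9 at 8.85 ± 0.89 (edgeR adjusted p = 0.00373), Hoxb2 at 6.82 ± 0.81 (edgeR adjusted p = 0.00362), Hoxa5, a gene of lung and neck development, at 6.02 ± 0.51 (edgeR adjusted p = 0.00179), and Hoxd13 at 4.72 ± 0.87 (edgeR adjusted p = 0.0126). Without E14 replicate 2 fewer members were called, and fewer genes over the whole table. The median log2 difference of the tested entries was then 5.07, beside 5.44 with all 8 libraries. The single MEF library was assumed to vary like the other groups.

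**Figure D4:**
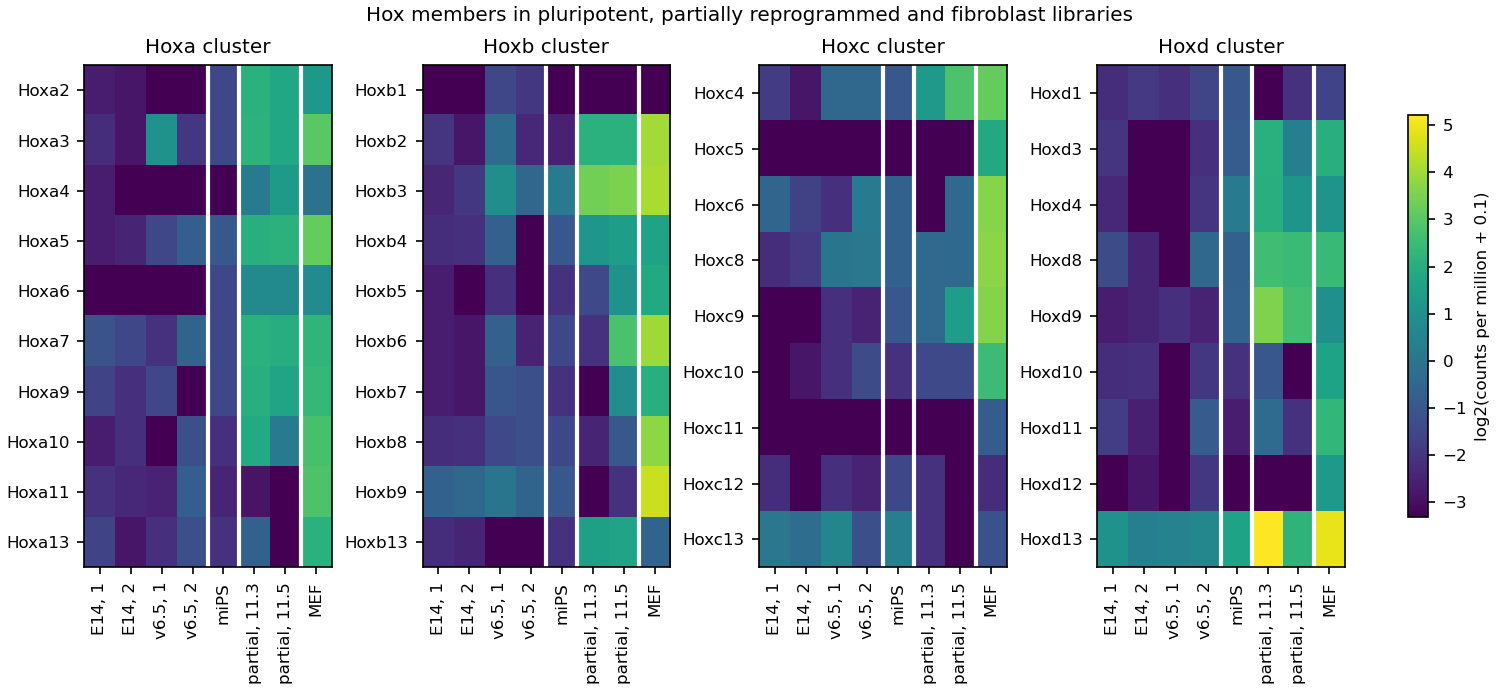
Each cell is log2(CPM + 0.1) of 1 Hox member in 1 of the 8 libraries (E14 and v6.5 ESCs, miPS, lines 11.3 and 11.5, MEF), with members ordered by paralog number within each cluster and the second entry of Hoxa3, with under 1 count in each library, left out. Hoxd13 reached 30.1 CPM in MEF and 36.8 CPM in line 11.3, and Hoxb9 was at 22.8 CPM in MEF and at 0 in line 11.3.

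Partially reprogrammed lines had some Hox genes near or above their MEF level and nearly none of others. Over the 32 entries with at least 10 counts in MEF, the median level was 25.8% of MEF in line 11.3 and 34.7% in line 11.5, in CPM. In line 11.3 14 members were at 50% or more and 12 under 10%, and in line 11.5 12 and 11. Scaling the libraries by TMM (trimmed mean of M-values), which gave MEF a factor of 0.796, lowered the medians to 20.4% and 25.9%. It left 11 and 9 members at 50% or more, and 4 and 3 above 100% in place of 7 and 4. The share of all genes at these levels was not counted. Fibroblast markers had a median of 0.130% and 0.0140% of MEF in the same lines and a few of the 10 lay above 1%: Twist1 was at 15.3% and 42.9%, Prrx1 at 1.48% and 37.4%, and Fbln2 at 5.65% in line 11.3 and 0.773% in line 11.5.

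Along the Hoxa cluster, levels in the lines dropped after Hoxa10 in line 11.3 and after Hoxa9 in line 11.5. Hoxa2 had 31.9, 24.9 and 19.7 counts in line 11.3, line 11.5 and MEF, Hoxa6 12.0, 12.0 and 14.4, and Hoxa9, which supports blood progenitors, 31, 23 and 44. Hoxa10, a uterine and limb gene, had 27.0, 8 and 57.0. Hoxa11, a forearm and uterus gene, had 0.283, 0 and 60.9 counts and Hoxa13, which shapes hand and hindgut, 4, 0 and 37. Among those with at least 10 MEF counts, the genes from Hoxa2 to Hoxa9 were between 40.4% and 188% of MEF in both lines, Hoxa10 was at 55.2% in line 11.3 and 16.3% in line 11.5, and Hoxa11 and Hoxa13 were at most 12.6%. Reads of Hoxa11 and of its antisense neighbour Hoxa11as cannot be told apart where counting ignores strand, and the sources used here do not give strand use.

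The Hoxd cluster showed a step between Hoxd9 and Hoxd10, the neighbours whose promoter windows are printed above. Hoxd9 had 88.6 counts in line 11.3, 47.0 in line 11.5 and 16.1 in MEF, or 11.8, 6.22 and 1.84 CPM. Hoxd10, a gene of the lumbar cord and hindlimb, had 3, 0 and 26.3 counts, and Hoxd12 0, 0 and 20. MEF was at least 11.5-fold above the lines for Hoxd12 (3 counts over both lines as the floor). Hoxd13, at the far end, had 277, 35 and 264 counts, at 122% of MEF in line 11.3 and 15.4% in line 11.5. On the 3′ side Hoxd8 had 45, 42 and 47.0 counts and Hoxd4 29.7, 15.3 and 17.9.

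Within Hoxb the 2 lines, each with 1 library, had different levels. Hoxb2 had 31.9, 32.3 and 143 counts in line 11.3, line 11.5 and MEF, and Hoxb3 78.7, 85.4 and 151. Hoxb6, a central gene, had 1, 50.0 and 138 counts, and Hoxb7 0, 13 and 35. Hoxb8 and Hoxb9 were near 0 in both lines (0.637 and 3.03, and 0 and 1 counts) against 119 and 200 in MEF. Hoxb13, far from the rest of the cluster, went the other way with 21, 23 and 5 counts. Hoxb1, the first gene of the cluster, had 0 counts in both lines and in MEF.

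Most Hoxc levels were low in both lines. The median was 4.87% of MEF in line 11.3 and 5.14% in line 11.5 (6 members), against 68.8% and 54.2% for Hoxa (10), 4.17% and 42.5% for Hoxb (8) and 107.5% and 22.2% for Hoxd (8). Hoxc4 had 17.8, 53 and 80 counts in line 11.3, line 11.5 and MEF, or 25.8% and 76.9% of MEF in CPM. Hoxc9 had 5, 20 and 108 counts, or 5.38% and 21.5% of MEF. Hoxc6, a thoracic gene, had 0.003, 5.01 and 110 counts, Hoxc8 5, 5 and 116, and Hoxc10 2, 2 and 49.2. Hoxc5 had 0 in both lines and 31.2 in MEF, at least 17.9-fold higher in CPM.

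**Figure D5:**
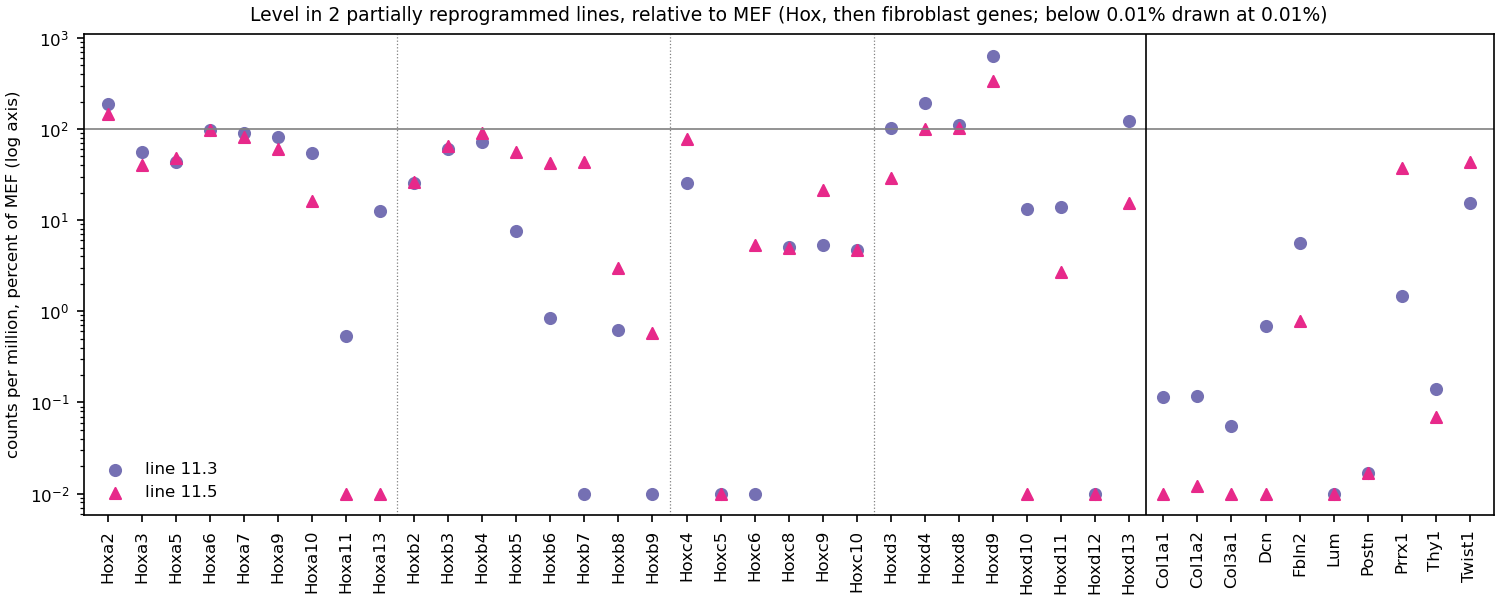
Level of Hox members with at least 10 MEF counts in lines 11.3 and 11.5, as a percentage of their MEF level in CPM (log axis, values below 0.01% drawn at 0.01%), with 10 fibroblast genes at the right, ordered by cluster and paralog number. Hoxd9 stood at 638% and 338%, while Hoxc5 and Hoxd12 were at 0 in both lines.

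Against ESCs, both lines lay above all 4 ESC libraries in 21 of 40 entries with no filter (16.6% of genes). Among the same 25 tested entries, whose passing the filter again largely sets the direction, edgeR called 21 higher in the 2 lines and 0 lower (13.6% of all genes higher, 16.1% lower). Hoxa6, with 0 ESC counts, was at least 32.3-fold higher in the lines. Hoxd9 differed by 6.54 ± 0.57 (edgeR adjusted p = 0.00171), Hoxa2 by 7.15 ± 0.66 (edgeR adjusted p = 0.00278) and Hoxb13 by 6.34 ± 0.66 (edgeR adjusted p = 0.00369). Those not called higher included Hoxb7, Hoxc6 and Hoxc13, the last at -3.46 ± 1.25 (edgeR adjusted p = 0.0827). Without E14 replicate 2 fewer members were called, and again fewer genes over the whole table. The median log2 difference of the tested entries was then 4.32, beside 4.51 with all 8 libraries.

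Set against MEF, the 2 lines gave 1 called member, where 8.87% of all genes were lower and 4.95% higher. Hoxc6 fell by 5.59 ± 1.38 on the log2 scale (edgeR adjusted p = 0.0465), a call lost without E14 replicate 1, E14 replicate 2 or line 11.3. Hoxc9 was at -3.29 ± 0.85 (edgeR adjusted p = 0.0649) and Hoxd9 at 1.93 ± 0.74 (edgeR adjusted p = 0.141). With no filter 12 members were lower, most of them genes that reached 1 CPM in MEF alone, such as Hoxa11, Hoxb8, Hoxb9 and Hoxd12. In that fit 2048 of 29008 genes were lower. MEF lay above both lines in 28 of 40 entries (24.4% of genes), and both lines above MEF in 6 (43.1%), among them Hoxa2, Hoxa4, Hoxb13, Hoxd8 and Hoxd9, of which Hoxd8 turned under TMM scaling. These comparisons share the ESC, line and MEF libraries with each other.

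The summed level of miPS (15.8 CPM) lay below v6.5 replicate 1 (17.7) and above the other ESC libraries (8.15, 5.57 and 12.1). The tested entries had a median log2 difference of 0.97 against ESCs, beside 0.01 for all genes. Hoxd13 read 3.02 CPM in miPS and 1.18 to 1.94 in ESCs, and Hoxd4 had 7.83 counts against 1.56, 0, 0 and 1.82. By edgeR 0 of 25 entries were called (0.0298% of all genes), 5 had an unadjusted p under 0.05, all higher in miPS (Hoxa2, Hoxa6, Hoxc9, Hoxd4 and Hoxd9), beside 7.95% of all genes in either direction, and DESeq2 called 0. The miPS library exceeded all 4 ESC libraries in 12 of 40 entries (24.9% of genes). The 10 fibroblast markers stood at 1.07% to 16.0% of MEF in miPS and 0.926% to 10.2% in ESCs, with medians of 5.86% and 3.12%, and the 32 Hox members at medians of 4.10% and 2.73%. Whether feeder RNA contributes to the Hox values of ESCs and miPS was not tested. Between E14 and v6.5 0 of 25 entries were called by edgeR (0.489% of all genes), 4 had an unadjusted p under 0.05 (18.7% of all genes), and DESeq2 called Hoxb3 lower in E14, with 1.54 and 3.77 counts in E14 and 13.6 and 7.51 in v6.5.

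Cofactors and regulators of Hox genes were also compared by edgeR, where 15.4% of all genes were higher and 13.3% lower in MEF than in ESCs. Of the 9 TALE cofactors, Meis1, Meis2, Meis3 and Pknox2 were higher in MEF than in ESCs and 0 were lower, with a median log2 difference of 1.34 beside -0.19 for all genes, and Meis1 and Meis2 were also higher in the partially reprogrammed lines, where Meis3 and Pknox2 were lower than in ESCs (13.6% of all genes higher, 16.1% lower). Of 17 Polycomb genes and opponents, 9 were lower in MEF than in ESCs, among them the methyltransferase Ezh2 and the chromatin reader Cbx7, and 3 were higher (among them Bmi1 and Kdm6b), with a median of -2.08. In the 2 lines 5 were lower and 2 higher than in ESCs, and 5 were higher than in MEF (Cbx7, Ezh1, Ezh2, Jarid2 and Phc1, with 4.95% of all genes). Of 13 tested Hox regulators, Cyp26b1 and Gdf11 were higher and Fgf8, Nr6a1 and T lower in MEF than in ESCs, with a median of -0.44, so these shares were near those of all genes.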

How the data were processed

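RNA was sequenced in 20 libraries. Per the submitters' processing notes, reads were aligned to mm9 with TopHat (1.14 and 1.3) and Bowtie 0.12.7 and quantified with Cufflinks 1.3.0 or RSEM, without saying which library each version belongs to. The authors deposited FPKM for the 12 differentiation libraries, and expected counts and TPM for the 8 others. A deposited TPM can lie above 0 where the count is 0, as for Hoxb1 in MEF. The sources used here do not give strand use in counting, and 16 interval and 8 ratio columns were left out.

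Log2(FPKM + 1) was fitted with limma 3.58.1 (mean trend) over genes with at least 1 FPKM in 2 libraries. Day was fitted with depletion as a covariate, and depletion within each day. Expected counts were rounded and fitted with edgeR 4.0.16 (quasi-likelihood, TMM) over genes with at least 1 CPM in 2 libraries, all 8 libraries sharing the spread. P-values were adjusted by Benjamini-Hochberg over all genes at a threshold of 0.05. Relative depth and reads per value in the differentiation table came from whole steps between low FPKM values, with a tolerance of 0.1 reads. The mm9 coordinates of the files were not joined with the GRCm38.p6 windows. Both fits were tested on simulated data.

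Some genes are not reported here or drawn in the figures, though counts and sums include them. Any other Hox member could be named, and other genes only as members of the lists for Hox regulators, TALE cofactors, Polycomb, cluster neighbours, other homeobox genes, and markers of fibroblasts, pluripotent, cardiac, endoderm, mesoderm, blood and endothelial, and neural cells. The members and all gene lists were chosen with earlier results of these data known. Alternatives were another pseudocount, no filter, a culture block, each library or culture left out, no mean trend, DESeq2 1.42.0 and limma on log2(TPM + 1). Libraries of 1 culture come from the same cells, and their deviations from the day means correlated at -0.004 to 0.447 (scrambled), -0.047 to 0.339 (hairpin A) and -0.091 to 0.642 (hairpin B).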

Additional observations from a re-analysis of the deposited data

Results flagged for a closer look

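Among the 7 members checked, with at least 10 counts in an ESC library, 1 had an ESC library far from the other 3. Hoxa3 stood at 1.92 CPM in v6.5 replicate 1 and at 0.0423 to 0.161 CPM in the others. Chance marks about 1 in 20 groups of this size where the members are not chosen by the same values. Hoxa3 had 15 counts in v6.5 replicate 1 and 2, 1 and 2 in the other ESC libraries. It entered the check only through the library flagged, so that rate does not hold for it.

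Noncoding transcripts of the clusters gave signal outside the members. Hoxa11as, antisense to Hoxa11, stood at 12.6 CPM in MEF and at 0.434 to 0.962 CPM in the ESC libraries. Hoxb3os, opposite Hoxb3, stood at 12.1 CPM in MEF and at 0 to 0.293 CPM in the ESC libraries, with 26.0 and 47.7 counts in lines 11.3 and 11.5. Without strand in the counting, these reads cannot be told apart from those of Hoxa11 and Hoxb3.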

How the results depend on the processing

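Called members among the days ranged from 0 to 3 at day 3, 0 to 4 at day 6 and 0 to 6 at day 9 when a library or culture was left out. Without the scrambled or the hairpin A culture there were 0 on each day, and without hairpin B there were 3, 4 and 6. The day 3 call was lost without any scrambled library, without hairpin A at day 0, 3 or 6, or without hairpin B at day 0 or 3. At day 6 there were 0 calls without the scrambled or hairpin A libraries of day 0 or day 6. Without 1 of the day 3 libraries or hairpin B day 0 there was 1. At day 9 there were 0 without any scrambled library, hairpin A day 0, 3 or 9, or hairpin B day 3. With the culture as a replicate block calls were 1, 4 and 2 at days 3, 6 and 9. More genes were called over the whole table as well on each of these days. With no filter Hox calls were 5, 6 and 4, and a pseudocount of 0.1 FPKM gave 1 at day 6. Without the 2 late hairpin B libraries, chosen after seeing the data, they were 3, 4 and 6. For depletion no filter gave 1 call at day 6 (Hoxc5) and 3 at day 9 (Hoxa11, Hoxc5 and Hoxc6), on a few reads each, and leaving out a hairpin gave 0 to 0.

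Leaving out 1 library gave 12 to 24 calls for MEF against ESCs, 11 to 22 for the partially reprogrammed lines against ESCs, 0 to 4 for these lines against MEF, and 0 to 4 for E14 against v6.5, the last without v6.5 replicate 2. The lines against MEF gave 4 calls without either v6.5 library and 2 without line 11.5. They gave 12 with no filter, 2 by DESeq2 and 6 by limma on log2(TPM + 1), which called Hoxd9 and Hoxb13 higher. E14 against v6.5 gave 1 with no filter and 1 by DESeq2, and 0 with the replicate number as a block, where numbers mark no stated pairing. The median number of members present per library was 3 at 1 FPKM, 21.5 at 0.1 and 0 at 5 FPKM, and 11 at 1 TPM, 39.5 at 0.1 and 0 at 5 TPM. For MEF and for the lines against ESCs, the leave-one-out fits with the fewest Hox calls also called the fewest genes higher over the whole table. The cause of these shifts was not tested. With 1 library per culture and day, and values of a few reads for most members, counting error limits these values.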

Other observations

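Of 7 tested genes outside the clusters but of the same homeobox class as the Hox genes, Dlx2, En1, Msx1 and Msx2 were higher in MEF than in ESCs and 0 were lower (15.4% and 13.3% of all genes), and the same 4 were lower in the partially reprogrammed lines than in MEF (8.87%), by edgeR. En1, a gene of the midbrain and ventral limb, fell by 7.97 on the log2 scale, Msx2 by 5.41, Dlx2 by 3.76 and Msx1 by 3.05. The 3 others were not called: Dlx1 read 1.48, 2.70 and 2.34 TPM in line 11.3, line 11.5 and MEF, En2 4.54, 0.607 and 0.237, and Gbx2 3.38, 1.31 and 0.436.

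Of 13 tested genes that border the clusters, Cbx1 rose at day 3 (3.26% of all genes) and Atf7, Lnp and Smug1 at day 9 (10.3%) by limma, with a median log2 difference of 0.22 at day 9 beside 0.10 for all genes. In MEF against ESCs Calcoco2, Cbx1 and Ttll6 were lower and Atf7 higher (13.3% and 15.4% of all genes) by edgeR, with a median of -0.08 beside -0.19. In the partially reprogrammed lines against ESCs Calcoco1, Calcoco2, Cbx1 and Ttll6 were lower and Atf7 and Mtx2 higher (16.1% and 13.6%), with a median of -0.07 beside -0.05, and Calcoco2 was higher in the lines than in MEF (4.95%).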
